A study of Homo sapiens with 2 samples.

Results

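The 4256 intronic PAX-8 peaks that lie within 20 kb of a transcription start site were examined in a single ChIP-Seq peak list. These peaks are the ones whose class in the list is intron, that carry no promoter assignment, and whose centre is at most 20 kb from the closest start site listed for them. They make up 9.38% of the 45360 peaks of the list and 26.9% of its 15837 intronic peaks. The rule used only class and distance, so the enrichment values of the peaks were free to vary. The chromatin came from THP-1 cells, an established human monocytic leukaemia line that turns macrophage-like with phorbol ester. All cells received PMA (phorbol 12-myristate 13-acetate, 160 nmol/L) over 24 h, rested in fresh medium for 6 to 12 h, and were loaded with oxidized low-density lipoprotein (ox-LDL, 50 mg/mL as the label gives it) for 48 h, which makes foam cells. The methods of the study give the ox-LDL dose as 50 µg/mL, so label and methods differ in the unit. The cells were then exposed to 3-hydroxystearic acid (C18-3OH), a hydroxylated long-chain fatty acid, which the same methods give as 100 µM for 24 h. There was 1 PAX-8 ChIP library and 1 Input library, made from the same kind of chromatin with no antibody step, and both came from treated cells. No library of untreated cells was compared, so nothing below is an effect of C18-3OH. With 1 library on each side there is no replicate and no test. Every interval given is a 95% interval that covers counting error only, and peaks of 1 library share their source. A peak list holds no RNA level, so the cell type was taken from the labels.

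PAX-8 is a paired-box transcription factor best known from the thyroid, where it drives thyroglobulin and the iodide transporter, and from the kidney and the Müllerian tract. Its paired domain contacts an extended DNA site, and a core often given for PAX2, PAX5 and PAX8 is GTCACGC. The first introns of human genes are long and commonly hold enhancers and alternative promoters, so an intronic peak a few kilobases downstream of a start site can mark a regulatory element of its host gene, of a neighbour or of neither.

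Of the host symbols, 159 carried a promoter peak across a listed start site as well as a near-start intronic peak. The upstream sequences of 4 of them are shown. SLC30A4 encodes a zinc transporter, UPF1 the helicase of nonsense-mediated mRNA decay, ECE1 the protease that releases active endothelin, and PPP2R5C a regulatory subunit of protein phosphatase 2A. ECE1 and PPP2R5C were chosen after their values were seen, ECE1 for its 4 intronic peaks and PPP2R5C as the host with such a promoter peak whose upstream window held the PAX core. The sequences are the 250 bases before the RefSeq gene start in GRCh38.p14, 5′ to 3′ on the strand of the gene, at chr15:45522756-45523005 on the minus strand for SLC30A4, chr19:18831709-18831958 on the plus strand for UPF1, chr1:21345505-21345754 on the minus strand for ECE1 and chr14:101760323-101760572 on the plus strand for PPP2R5C. Capitals mark GTCACGC or its reverse complement GCGTGAC, and a run with no capitals holds neither. The RefSeq start was not matched to the hg19 start under the promoter peak, so a window need not lie at that peak. At ECE1 the promoter peak lay over the listed start at 21616956 (hg19), while an intronic peak lay 6491 bp from another of its starts.
SLC30A4: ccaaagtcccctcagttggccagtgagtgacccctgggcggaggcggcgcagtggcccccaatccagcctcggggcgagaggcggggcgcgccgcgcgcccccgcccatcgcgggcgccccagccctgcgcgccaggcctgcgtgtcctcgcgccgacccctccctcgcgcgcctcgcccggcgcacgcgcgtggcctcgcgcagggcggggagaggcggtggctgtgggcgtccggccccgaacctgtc
UPF1: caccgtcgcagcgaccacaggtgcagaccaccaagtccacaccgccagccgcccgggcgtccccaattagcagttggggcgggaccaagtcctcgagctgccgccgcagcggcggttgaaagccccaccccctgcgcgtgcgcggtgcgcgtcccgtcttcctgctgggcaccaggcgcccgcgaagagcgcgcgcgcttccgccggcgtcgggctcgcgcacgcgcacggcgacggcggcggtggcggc
ECE1: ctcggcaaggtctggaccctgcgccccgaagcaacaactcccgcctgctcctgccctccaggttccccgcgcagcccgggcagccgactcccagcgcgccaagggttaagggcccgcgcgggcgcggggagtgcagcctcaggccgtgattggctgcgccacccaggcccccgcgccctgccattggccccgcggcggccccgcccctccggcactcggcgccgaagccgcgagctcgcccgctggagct
PPP2R5C: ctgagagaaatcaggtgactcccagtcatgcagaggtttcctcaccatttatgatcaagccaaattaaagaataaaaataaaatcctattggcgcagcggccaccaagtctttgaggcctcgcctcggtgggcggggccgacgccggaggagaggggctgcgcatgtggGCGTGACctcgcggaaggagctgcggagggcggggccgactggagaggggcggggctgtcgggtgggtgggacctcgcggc
Of these 4 windows, 1 held the core. The same 250 bases held it in 2.82% of 15843 protein-coding promoters, in 3.14% (2.52 to 3.91%) of the promoters of 2421 protein-coding hosts, and in 2.46% (1.34 to 4.47%) of the promoters of 406 hosts that also had a promoter peak. Among the 110 protein-coding hosts with a promoter peak across a listed start and a RefSeq window, 1 window held it (0.909%, 0.161 to 4.97%). These are letter matches in promoters, not in the intronic peaks, whose own hg19 sequence was not read here.

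At SLC30A4 the promoter peak at chr15:45814525-45815005 (hg19, the build of the list and of all peak positions below) had 14 tags and a fold enrichment of 10.62, and the intronic peak at chr15:45810193-45811042, 4336 bp into the gene, had 20 tags and the same fold of 10.62. Tags are the ChIP reads counted in a peak, and fold enrichment is a ratio as listed, with no account of how it was computed. It is not the tags divided by the background read back below: at PMF1, 337 tags over 111 background tags were listed with a fold of 13.30. SLC30A4 was the only 1 of the 159 hosts in which both peaks reached a fold of 10. At UPF1 the promoter peak (15 tags) and the intronic peak 10065 bp into the gene (14 tags) were both listed at 9.80. At ECE1 the promoter peak had a fold of 9.80 with 13 tags, and the strongest of 4 intronic peaks had 8.99 with 14 tags. At PPP2R5C the promoter peak reached 12.25 with 20 tags, while the intronic peak 8454 bp from the closest start had 5.72 with 13 tags. Over all 159 hosts, the median fold was 7.35 at the promoter and 7.35 at the strongest near-start intronic peak, and the promoter was higher in 80, the intron in 73, and 6 were equal. The median over all peaks of the list was also 7.35, so the equal medians set these pairs apart from no other peaks, and the intronic value is the highest where a host had several. Hosts are symbols here, so the pairs are not all separate or close. SYT15 and LOC102724488 share both peaks. BMS1P22, with its promoter peak on chromosome 14, is paired with the intronic peak of DUXAP8 on chromosome 22. At NAV2 the intronic peak lay 687851 bp from the start under the promoter peak.

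Most near-start intronic peaks rested on few reads, as did most peaks of the whole list. The number of tags ran from 11 to 337, with quartiles of 12 and 16 and a median of 14 (13 to 14), against a median of 14 over all peaks. Between 11 and 20 tags were held by 3794 peaks (89.1%, against 88.2% of all peaks). Only 99 peaks had 30 or more tags (2.33% against 2.87% of all peaks), and 12 had 100 or more. Fold enrichment ran from 3.14 to 15.53, with quartiles of 6.44 and 8.17 and a median of 7.35. A few fold values recurred, and the 8 most frequent of 408 distinct values covered 61.4% of the peaks. The most frequent value, 7.35, was shared by 583 peaks (13.7%, against 13.2% of all peaks), followed by 6.54 in 532, 8.17 in 471 and 8.99 in 378. The length was 265 to 7768 bp with a median of 592 bp, and the median p-value score, which is the negative logarithm of the p-value times 10, was 48.1 (47.8 to 48.4). The listed false discovery rate was 0 to 2.44% with a median of 0.16%, and 7 peaks were above 1%, against 74 of all 45360 peaks.

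**Figure D1:**
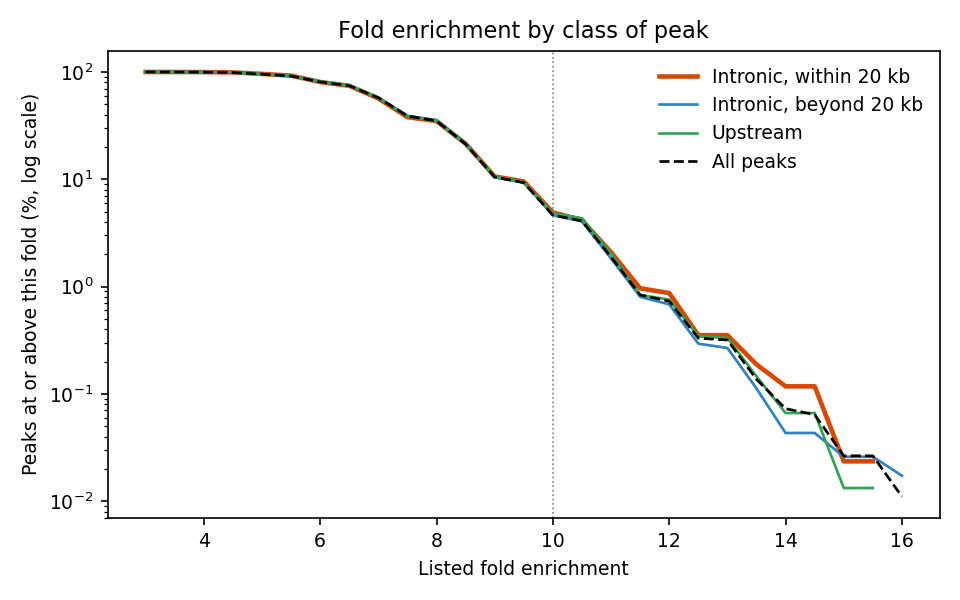
Percent of peaks (log axis) listed at or above each fold enrichment, for 4256 intronic peaks within 20 kb of a start, 11581 intronic peaks beyond 20 kb, 7546 upstream peaks and all 45360 peaks. The 4 lines run together at a fold of 10 (dotted line), where they stand at 4.91%, 4.61%, 4.84% and 4.63%. Above it they draw apart, to 0.869%, 0.682%, 0.755% and 0.730% at a fold of 12, where few peaks remain.

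The share of high-fold peaks among the near-start intronic peaks lay close to that of the whole list. A fold of at least 10 was reached by 209 of them (4.91%, 4.30 to 5.60%), against a background of 4.63% over all peaks. Intronic peaks more than 20 kb from a start reached it in 4.61%, a difference of 0.30 percentage points (-0.43 to 1.08). Upstream peaks, which lie at the same 2 to 20 kb but before the start, reached it in 4.84%, a difference of 0.07 points (-0.72 to 0.90). A score of at least 80 was listed for 176 near-start intronic peaks (4.14%), against 4.3% of all peaks, and 20 or more tags for 546 (12.8%), against 14% of all peaks. Both a fold of 10 and a score of 80 were met by 64 (1.5%, against 1.47% of all peaks). The intervals of these differences span 0, so at this number of peaks an excess of high-fold peaks above 1.08 points over deep introns, or above 0.90 points over upstream regions, lies outside the intervals.

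The background beneath each peak was read back from the list. For each peak, the Poisson mean at which its tags give its p-value was found and expressed per kb, and one value, 5.94 tags per kb, recurred throughout. Of the near-start intronic peaks, 2540 (59.7%, 58.2 to 61.1%) lay within 1% of that genome-wide value, against 55.8% of deep intronic peaks, a difference of 3.92 points (2.18 to 5.64), and 57.6% of upstream peaks, a difference of 2.10 points (0.25 to 3.94). Without chromosomes 1, 6 and 8, where few peaks lay at that value, the shares were 71.5% and 68.2%, a difference of 3.31 points from deep introns (1.48 to 5.10), and 69.7% upstream, a difference of 1.83 points (-0.11 to 3.74). Without them the interval against upstream peaks spans 0. A fold of 10 was reached by 5.35% of the near-start intronic peaks at the genome-wide background and by 4.25% of the others, a difference of 1.10 points (-0.23 to 2.38).

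The peaks with the highest fold enrichment were spread over genes of unrelated function and still held few tags. The highest value, 15.53, was listed at LOC101929106, a long non-coding RNA gene, at chr3:186922383-186922782 with 20 tags (exact Poisson interval 12.2 to 30.9), 2835 bp from the start. Peaks with a fold of 14.70 lay in RRP12, a ribosome biogenesis factor (chr10:99143498-99144534, 27 tags, 17082 bp from the start), and in TRABD2A, a membrane protease that acts on Wnt proteins (chr2:85102416-85103077, 23 tags, 5462 bp). The same fold was listed in SLC12A5, the potassium-chloride cotransporter of neurons (chr20:44676132-44677025, 22 tags, 18725 bp), and in the pseudogene SSPOP (chr7:149486752-149487462, 22 tags, 13976 bp). The next were ZNF114, a zinc finger gene (chr19:48784467-48785751, 39 tags, fold 13.89, 10565 bp), ARMH4 (chr14:58609698-58610521, 25 tags, 13.89, 8822 bp) and NMS, the gene of the neuropeptide neuromedin S (chr2:101095796-101096352, 18 tags, 13.89, 9130 bp). PMF1, described with the p-values, was listed at 13.30 and LINC00322 on chromosome 21 at 13.07 with 23 tags. Of the 10 highest, 8 lay at the genome-wide background, the 2 others being LOC101929106 at 1.08 times and PMF1 at 18 times that value. The tenth place was a tie of 6 peaks at 13.07, broken by the number of tags, and 11 of all 15 peaks at or above 13.07 lay at the genome-wide background. A neuron-restricted transporter and a neuropeptide gene thus stood beside a housekeeping factor at the top of the order, and the tag intervals of the first 8 named overlap.

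Ranking by p-value picked a different kind of peak. The smallest p-value belonged to the peak shared by PMF1, a kinetochore component, and the read-through gene PMF1-BGLAP at chr1:156185661-156186702, with 337 tags (302 to 375), a fold of 13.30 and a score of 660.12, 3403 bp from the start. It was followed by LOC728613 (72 tags, score 174.57), BMP8A, a bone morphogenetic protein (285 tags, 170.38), ZNF114 (39 tags, 158.25), HFM1, a meiotic helicase (284 tags, 154.53), and ZDHHC11B, of the palmitoyltransferase family (106 tags, 151.62). FOXO6, a forkhead factor, had a score of 142.95 with 283 tags, RNASE10 137.49 with 42 tags, POLR2J3 with UPK3BL2 130.72 with 49 tags and COQ8A, a kinase-like protein of coenzyme Q synthesis, 130.69 with 70 tags. Of these 10, 8 lay over more than 1.4 times the genome-wide background, up to 24.0 times at HFM1, and 2 lay at it. PMF1 and ZNF114 were the only 2 peaks in both lists of 10. The small p-values thus mostly stood over raised background and the high folds mostly did not.

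A background above 3 times the genome-wide value was found under 16 near-start intronic peaks (0.376%), against 288 (0.635%) of all peaks. Of these 16, 7 lay in 5 genes within chr1:39956695-43784229, a stretch of 3828 kb. They were in BMP8A, PPIEL, NT5C1A, a cytosolic nucleotidase, FOXO6 with 2 peaks and TIE1, an endothelial receptor tyrosine kinase, with 2. Their backgrounds were 3.38 to 4.43 times the genome-wide value and their lengths 2599 to 7768 bp, which includes the longest of all 4256 peaks, in FOXO6. Their folds were below the median of 7.35 throughout, from 3.14 at NT5C1A, the lowest of all near-start intronic peaks, to 6.12 at BMP8A. Between 39 and 44 Mb of the chromosome, 113 of 130 peaks of any class were above 3 times, and from 44 to 45 Mb 9 of 37 were, while none was from 35 to 39 Mb or from 45 to 48 Mb. The raised level was not unbroken: 6 peaks at 3.72 to 3.81 Mb beyond the BMP8A peak stood at 1.15 to 1.33 times, 1 of them a near-start intronic peak, and the TIE1 peaks just after them were raised again. Outside the stretch, the raised peaks included HFM1 at 24.0 times, LINC01597 (chr20:29518176-29519295) at 14.7 times, and TMEM242 on chromosome 6 with 1 peak at 11.2 and 1 at 6.98 times. What raised these backgrounds was not tested, since no value of the Input library was used here.

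**Figure D2:**
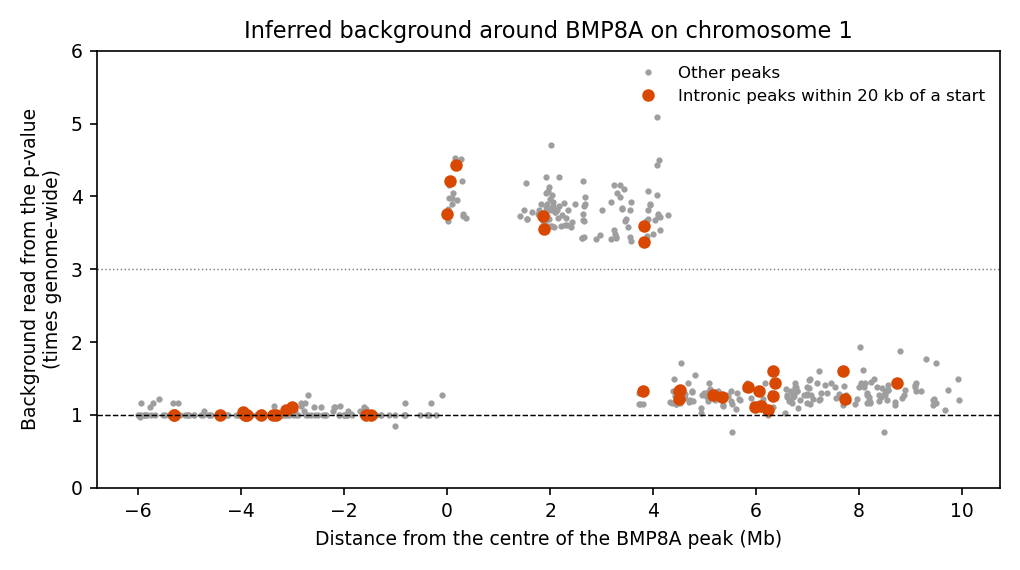
Background read from the p-value of each peak, as a multiple of the genome-wide 5.94 tags per kb, against the distance of the peak in Mb from the centre of the BMP8A peak, with intronic peaks within 20 kb of a start in orange and all other peaks in grey. The level steps from about 1 (dashed line) to above 3 (dotted line) at BMP8A, drops below 1.4 for 6 peaks at 3.72 to 3.81 Mb, is raised again up to 4.28 Mb, and 7 orange points stand on the raised parts.

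The peaks were found at every distance the rule allows, and more often near the start. The distance ran from 2002 to 19995 bp with a median of 9362 bp and quartiles of 5215.5 and 14014.5 bp, and 2301 peaks (54.1%, 52.6 to 55.6%) lay within 10 kb. In bins of 2 kb the number fell from 688 at 2 to 4 kb to 583, 519, 511, 445, 444, 358, 364 and 344 at 18 to 20 kb. All 4256 lay downstream of their closest start, which the class fixes. Gene size and the number of starts varied too, as 1047 peaks (24.6%) were in hosts shorter than 22 kb, whose introns end before or near 20 kb, and 1070 peaks were listed with more than 1. Among the 2347 peaks with 1 listed start in a host of at least 22 kb, the bins held 279, 262, 263, 276, 257, 281, 233, 264 and 232 peaks, and 46% (44 to 48.0%) lay within 10 kb, where 44.4% of the allowed window lies. In these hosts the interval takes in the share of the window, so no crowding towards the start was seen.

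**Figure D3:**
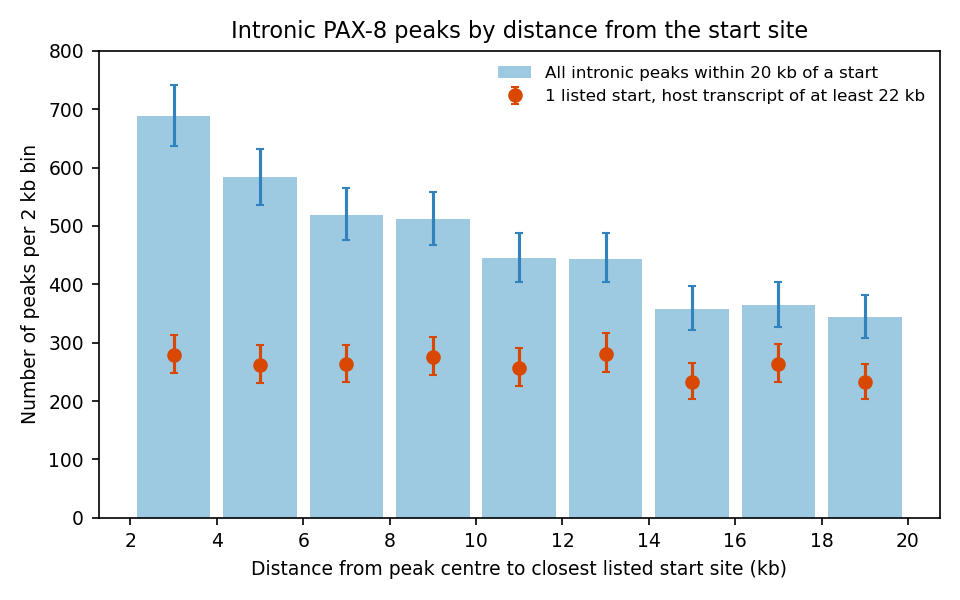
Number of intronic PAX-8 peaks per 2 kb of distance from the closest listed start (kb), as bars for all 4256 peaks and as points for the 2347 with 1 listed start in a host of at least 22 kb, with exact 95% Poisson intervals. The bars fall from 688 to 344, while the points stay between 232 and 281.

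The same was seen per unit of sequence. In 1813 genes of at least 100 kb with 1 listed start, 491 peaks lay at 2 to 20 kb and 2190 at 20 to 100 kb, which is 15.0 and 15.1 peaks per Mb and a ratio of 0.996 (0.902 to 1.10). These genes were taken from the list and so each has at least 1 peak. Height did not change steadily with distance either: the share with a fold of at least 10 was 3.33% at 8 to 10 kb, the lowest, and 7.42% (5.15 to 10.6%) at 16 to 18 kb, the highest of 9 bins, and the median fold was 7.30 to 7.35 in each. The peaks nearest to a start were in PLA2G3, a secreted phospholipase A2 (2002 bp, fold 7.35), CDK2AP1, a regulator of the kinase CDK2 (2006 bp, 5.77), and LINC02611 (2010 bp, 8.99). At the far limit, LINC01520 (19995 bp, 7.35), WDFY3-AS2 (19992 bp, 8.99) and PACSIN1, a neuronal endocytic protein (19989 bp, 6.01), were just inside. INTS13, a subunit of the Integrator complex (20005 bp, 6.73), GREB1 (20007 bp, 8.17) and GTF2I, a general transcription factor (20007 bp, 8.99), were just outside. The folds on both sides of the limit overlap.

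The class order of the list shaped which peaks were counted. None of the 4256 peaks lay within 20 kb upstream of any start found anywhere in the list. A peak near the upstream side of 1 transcript is classed as upstream even when it lies inside another. Of the 7546 upstream peaks, 2277 (30.2%) lay inside a listed transcript, and 1092 of them within 20 kb downstream of that transcript's start. These would be near-start intronic peaks under another order. Neighbouring near-start intronic peaks lay within 500 bp of each other 55 times and within 10 kb 611 times, so the peaks are not all separate sites.

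The peaks lay in 3603 host gene symbols, of which 2916 (80.9%) had 1 peak, 560 had 2, 106 had 3 and 21 had 4 or more. By the RefSeq table, 3047 symbols were protein-coding (84.6%), 455 were long non-coding RNA genes (12.6%) and 97 were transcribed pseudogenes. Set against 20056 protein-coding genes, 15.2% hosted a near-start intronic peak. A promoter peak was listed for 565 of the 3603 hosts (15.7%, 14.5 to 16.9%), and for 473 of 2910 symbols that hosted only deep intronic peaks (16.3%), a difference of -0.57 points (-2.37 to 1.21). When the distance was taken from the first line of each peak, the difference was -2.09 points (-3.88 to -0.31), so its size depends on that choice. Over protein-coding hosts the share was 16.7% (15.5 to 18.1%), where 13.3% of all protein-coding genes had a promoter peak. The 13.3% includes genes with no peak of any kind, so the comparison with deep-intron hosts is the closer one. An upstream peak was listed for 1222 hosts (33.9%, against 31% of deep-only hosts, a difference of 2.92 points, 0.63 to 5.20), and 893 hosts (24.8%) had near-start intronic peaks only. The 2 sets were not built alike: 1299 of the 3603 hosts (36.1%) also had a deep intronic peak, while deep-only hosts had no near-start one.

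Several hosts held clusters. SLC2A11, a glucose and fructose transporter of the GLUT family, held 5 peaks within 8.64 kb at chr22:24205948-24214587. In order along the chromosome they had 13, 14, 11, 14 and 17 tags and folds of 8.99, 5.72, 6.54, 6.54 and 6.24, so none of the 5 reached 10. RXRA, described with its list below, held 4. ZFHX3, a large zinc finger homeobox factor, held 4, with folds of 10.62, 6.32, 8.17 and 8.99 on 13 to 19 tags. INPP5A, an inositol phosphate phosphatase, held 4, with folds of 7.35, 5.72, 7.35 and 10.10 and 11, 11, 12 and 19 tags. CNTN2, a neuronal adhesion protein, held 4 within a host transcript of 35.1 kb, with folds of 8.54, 8.15, 6.99 and 7.52. ECE1 held 4 around its alternative starts, with folds of 6.54, 8.17, 6.54 and 8.99, and EFHD1, a mitochondrial calcium-binding protein, held 4 with folds of 8.99, 8.17, 6.54 and 5.72. ARHGAP39 and DPYSL2, on chromosome 8, and ABLIM1, an actin-binding LIM protein, held 4 each. NBPF19 was listed for 7, but its listed span is 2314 kb and its own start was from 2176 to 1967656 bp away, so these peaks qualified mainly through the starts of other genes.

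The gene lists below were drawn up from textbook roles, with earlier results of these data known, and their counts are descriptions. Over the 10 lists, 35 of 227 genes hosted a near-start intronic peak (15.4%, 11.3 to 20.7%), against the 15.2% of all protein-coding genes. Their 54 peaks held 11 to 34 tags, and their folds ran from 5.27 to 11.44 with a median of 7.35, the median of all 4256 peaks. A fold of at least 10 was listed for 4 of the 54 (7.41%, 2.92 to 17.6%), against 4.63% of all peaks and 4.91% of the near-start intronic peaks. Of the 54, 29 lay at the genome-wide background. Raised values were found in several lists, with up to 1.94 times at TERT, 1.61 at SLC6A3, 1.49 at RXRA, 1.44 at SMARCA2 and 1.38 at BATF3.

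**Figure D4:**
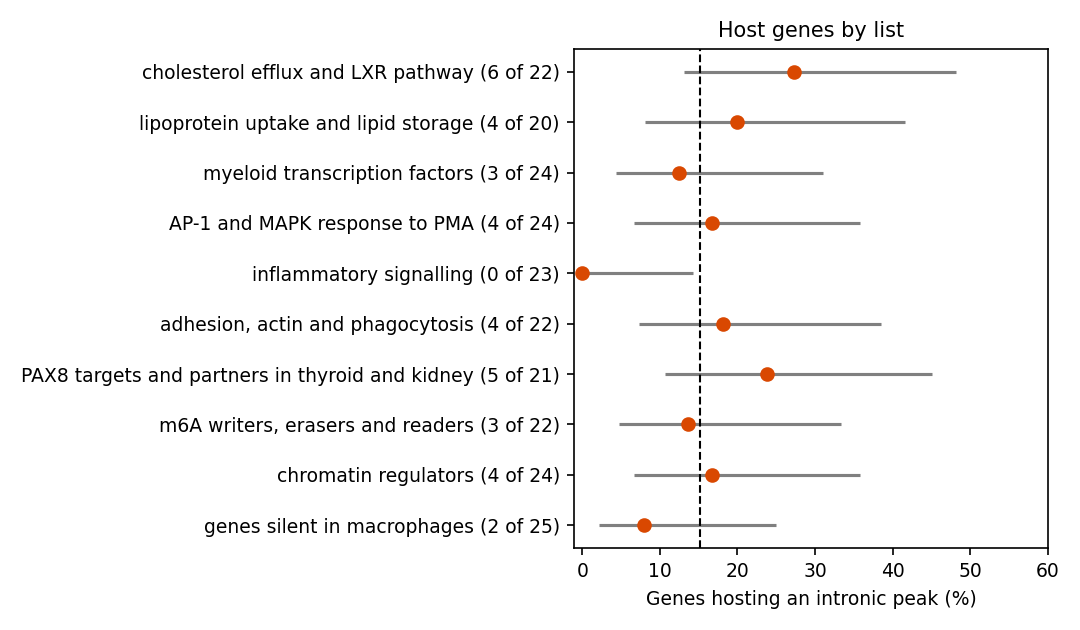
Percent of genes in each of 10 lists that hosted an intronic peak within 20 kb of a start, with 95% Wilson intervals as lines and the 15.2% of all protein-coding genes as a dashed line. The intervals of 9 lists take in the dashed line, and inflammatory signalling, at 0 of 23, has its upper bound at 14.3%.

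Cholesterol efflux in macrophages runs through the nuclear receptors LXR and PPAR, which act with the partner RXR to induce the ABC transporters, and through carriers that move cholesterol within and out of the cell. Of 22 genes of this pathway, 6 hosted a near-start intronic peak (27.3%, 13.2 to 48.2%), with 12 peaks in all. NPC1, which exports cholesterol from lysosomes, had 1 peak at chr18:21155824-21156294 with 14 tags and a fold of 9.80, 10412 bp from the start. SCARB1, the HDL receptor SR-BI, had 3 between 16953 and 19864 bp from the start, with folds of 9.62, 7.38 and 6.21 and 12, 15 and 13 tags. PPARG had 1 at chr3:12406433-12406906 with 12 tags and a fold of 8.17, and PPARA had 2, with 11 tags each and folds of 6.54 and 8.17. RXRA, the shared partner receptor, had 4 with folds of 7.18, 6.81, 5.70 and 7.11 and 14, 15, 30 and 20 tags, and SMPDL3A, a phosphodiesterase induced by LXR, had 1 with 15 tags and a fold of 6.94 (both named after their values were seen). ABCA1, the efflux transporter to apoA-I, hosted none, and the single peak listed for it was intergenic. PPARA also had a promoter peak, and NPC1, SCARB1 and PPARG had none.

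Lipoprotein uptake and lipid storage gave 4 hosts of 20 (20%, 8.07 to 41.6%). STAB1, a scavenger receptor, had the highest value, with 20 tags and a fold of 10.62 at chr3:52539633-52540418. LPIN1, a phosphatidate phosphatase, had 3 peaks with 13 tags each and folds of 8.17, 6.54 and 6.54. PLIN2, a lipid droplet coat protein, had 11 tags and a fold of 6.47, 2946 bp from the start, and SOAT1, which esterifies cholesterol for storage, had 15 tags and a fold of 6.15. Among adhesion, actin and phagocytosis genes there were 4 hosts of 22 (18.2%, 7.31 to 38.5%). DOCK2, a Rac activator of blood cells, had 22 tags and a fold of 11.44 at chr5:169081199-169082050, the highest fold in any list, and a promoter peak of 8.17. ELMO1, the partner of DOCK proteins, stood at 8.12 with 11 tags for the stronger of 2 peaks, and ITGB2, the beta chain of leukocyte integrins, at 7.35 with 12 tags.

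Myeloid transcription factors gave 3 hosts of 24 (12.5%, 4.34 to 31%). SPI1, the myeloid master factor PU.1, had 17 tags and a fold of 8.17 at chr11:47397137-47397958, 2551 bp from the start. MITF, a factor of the microphthalmia family, had 13 tags and 8.17 for the stronger of 2 peaks, and RUNX3 had 15 tags and 8.05. AP-1 and MAPK genes that respond to PMA gave 4 of 24 (16.7%, 6.68 to 35.9%). BATF, an AP-1 partner, had 2 peaks with folds of 10.62 and 9.80 and 15 and 14 tags. MAFF, a small Maf factor, had 15 tags and 9.80, BATF3 had 28 tags and 8.26, and PRKCD, a protein kinase C that phorbol esters activate, had 13 tags and 8.17 for the stronger of 2. MAFF, BATF3 and PRKCD each had a promoter peak as well. Inflammatory signalling, meaning cytokines, chemokines and the NF-kB and Toll-like receptor pathways, gave 0 of 23, which allows a share of up to 14.3% by the Wilson interval, and 3 of its genes had a promoter peak. Many such genes are short, and gene length was not matched between lists.

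A list of targets and partners of PAX8 in thyroid and kidney was drawn from those other tissues, and 5 of its 21 genes hosted a near-start intronic peak (23.8%, 10.6 to 45.1%). SLC5A5, the iodide transporter, had 13 tags and a fold of 10.62 at chr19:17994233-17994609, 11667 bp from the start. PAX2 had 2 peaks, the stronger with 11 tags and a fold of 8.17, and CDH16, the kidney cadherin, had 13 tags and 6.54. TG, thyroglobulin, had 22 tags and 7.80 over 1.36 times the genome-wide background. TERT, the telomerase subunit, named after its values were seen, had 3 peaks with 15, 34 and 26 tags and folds of 5.39, 5.48 and 5.27 over 1.21, 1.94 and 1.55 times that background. Genes that macrophages do not use gave 2 of 25 (8.00%, 2.22 to 25%). They were GRIN1, a glutamate receptor subunit, with 3 peaks of 17, 14 and 15 tags and folds of 8.32, 7.03 and 5.39, and SLC6A3, the dopamine transporter, with 25 tags and 6.11 over 1.61 times the background. Both also had a promoter peak, as did 10 of these 25 genes (40%, 23.4 to 59.3%), against the 13.3% of all protein-coding genes and 1 to 7 genes in each of the other 9 lists. The intervals of the target and partner list and of the silent list overlap.

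Chromatin regulators gave 4 of 24 (16.7%, 6.68 to 35.9%). SMARCA4 and SMARCA2, the ATPases of the SWI/SNF remodeller, had 12 tags and a fold of 8.07 and 18 tags and 7.38, and HDAC9, a class II histone deacetylase, 11 tags and 6.54. The m6A machinery, which writes, removes and reads methyl marks on RNA, gave 3 of 22 (13.6%, 4.75 to 33.3%). YTHDF1, a cytoplasmic reader, had 18 tags and a fold of 9.80 for the stronger of 2 peaks, and YTHDC1, the nuclear reader, had 13 tags and 6.54. ELAVL1, the RNA-binding protein HuR, had its only peak of the list in this class, at chr19:8060745-8061260 with 12 tags and a fold of 6.54, 9523 bp from the start. The demethylase gene ALKBH5 had no peak of any class, and the 4 peaks listed for PAX8 itself were intergenic or upstream.

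Host transcripts of microRNAs held near-start intronic peaks as well. The mature sequences from RefSeq are shown for the microRNAs after which these hosts are named, since 2 hosts at separate loci make the same one. The seed, bases 2 to 8, is in capitals, and the 5p arm is given where there are 2 arms.
hsa-miR-181a-5p: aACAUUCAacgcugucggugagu
hsa-miR-646: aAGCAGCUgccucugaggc
hsa-miR-3945: aGGGCAUAggagaggguugauau
hsa-miR-4300: uGGGAGCUggacuacuuc
hsa-miR-99a-5p: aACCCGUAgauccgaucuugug
The 5 seeds differ from each other. MIR181A2HG on chromosome 9 had a peak of 13 tags and a fold of 9.80, 14937 bp from the start, and MIR181A1HG on chromosome 1 had 15 tags and 9.32, 7179 bp from the start, so both host genes of miR-181a, a regulator of lymphoid and myeloid cells, held one at like height. MIR646HG had 17 tags and a fold of 10.10, MIR3945HG 15 tags and 8.99, and MIR4300HG 11 tags and 8.99. MIR99AHG, a long host gene on chromosome 21, had 2 peaks with folds of 6.21 and 8.17 on 11 and 12 tags. The other microRNA entries were lower for the most part, with MIR1268A at 7.35 to 8.01, MIR548F3 at 5.81, MIR548N at 5.68 and MIR2052HG at 4.94. MIR1268A, MIR548F3 and MIR548N name microRNA genes, but their listed spans here were 196 to 670 kb. These spans lay on other chromosomes than the RefSeq genes of those names. The MIR548F3 and MIR548N peaks were 78400 and 48213 bp from those symbols' own starts, and 1 MIR1268A peak was 206779 bp away. They qualified through the starts of LINC02869, PALMD and SPTAN1. Apart from MIR1268A, MIR548F3 and MIR548N, the peaks mark the host introns, and no value here measures the microRNAs.

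The chromosomes differed in how many intronic peaks lay near a start and in how high they stood. The near-start intronic peaks numbered from 21 on chromosome X to 491 on chromosome 1, with 0 on Y. They were 57.1% (52.7 to 61.5%) of the intronic peaks of chromosome 19 but 18.6% (15.0 to 22.9%) of those of chromosome 18, and the median host length was 25.2 kb and 67.8 kb respectively. A fold of at least 10 was reached by 2.05% of the 925 peaks on chromosomes 1, 6 and 8 and by 5.70% of the 3331 on the others. On those 3 chromosomes 17.0% of the peaks lay at the genome-wide background, against 71.5% on the others, with 30.3% on chromosome 1, 2.15% on 6 and 1.49% on 8. Within single chromosomes, the share with a fold of 10 among near-start intronic peaks was set against that of the other peaks, and the interval of the difference lay below 0 on 1 of 23 chromosomes and above 0 on 2. On chromosome 16, 77.7% of its near-start intronic peaks lay at the genome-wide background, and yet 2 of 175 (1.14%, 0.314 to 4.07%) reached a fold of 10. Its other peaks reached it in 82 of 1622 cases (5.06%), a difference of -3.91 points (-5.35 to -0.83). The difference went the other way on chromosome 5, with 20 of 254 (7.87%) against 114 of 2849 (4.0%), or 3.87 points (1.04 to 7.90), and on chromosome 11, with 17 of 219 (7.76%) against 97 of 2096 (4.63%), or 3.13 points (0.11 to 7.53). These 3 were picked out of 23 after the values were seen.

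**Figure D5:**
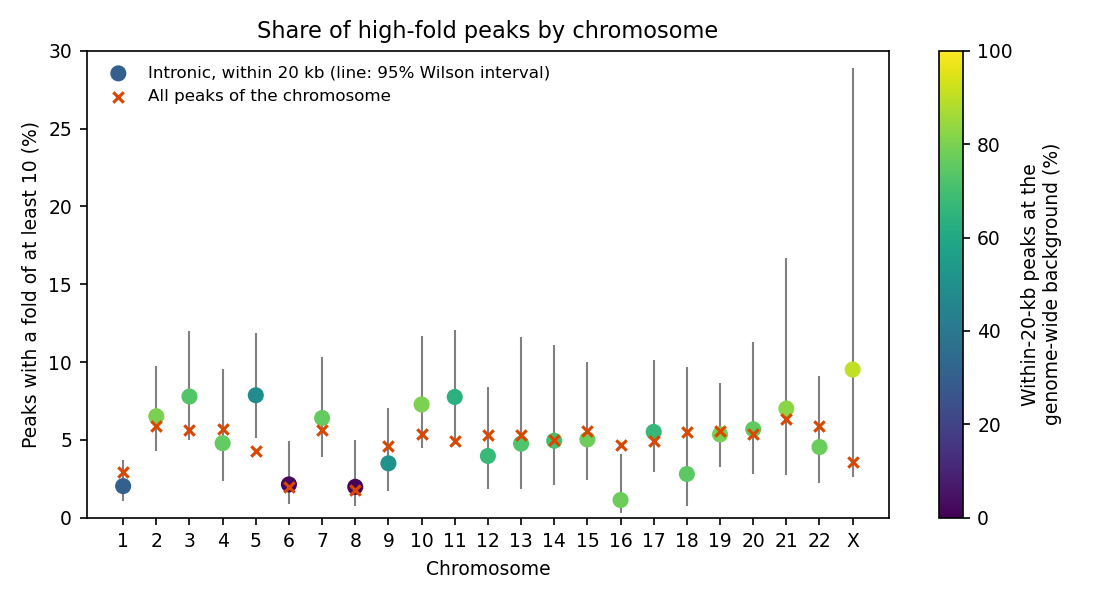
Percent of intronic peaks within 20 kb of a start that had a fold of at least 10, by chromosome, as circles with 95% Wilson intervals and a colour for the percent at the genome-wide background, and the same percent over all peaks of the chromosome as crosses. Chromosomes 1, 6 and 8 are dark and low for both, and on chromosome 16 the circle (1.14%) lies below the cross (4.67%).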

How the data were processed

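PAX-8 ChIP-Seq of THP-1 foam cells was carried out by the authors as 1 ChIP and 1 Input library, and their deposited hg19 peak list was the starting point. Per the file headers it holds the count of tags per peak, the fold enrichment as a ratio, a score, the negative logarithm of the p-value times 10, and the false discovery rate in percent. FastQC is named in the submitters' processing notes, while for the aligner, the peak caller and duplicates nothing is given in the sources used. The number of reads per library is unknown, and no file of the Input library was used here. A repeat of the experiment is mentioned in the methods, but 1 list was analysed.

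The 103443 lines were reduced to 45360 unique intervals. A peak was kept when its class was intron, no line was promoter, and the smallest distance to a listed start was at most 20000 bp. Backgrounds were solved from tags and score with a logarithm of base 10, with a tolerance of 1%. Shares have Wilson intervals, differences Newcombe intervals, medians order-statistic intervals and tag counts exact Poisson intervals. Host symbols were matched to RefSeq (GRCh38.p14, names only) by accession (3588), symbol (9) or synonym (5), and 1 was not matched. Promoter and microRNA sequences came from RefSeq tables of that build, and GTCACGC was searched on both strands.

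The rule for named items took the 10 peaks with the highest fold, the 10 with the smallest p-value, the 10 hosts with the most peaks, up to 4 hosts per gene list, 3 peaks on each side of the limit, the 3 closest to a start, up to 10 microRNA hosts, and PAX8, ABCA1, ALKBH5 and ELAVL1, and some items it names are not reported here. The members and lists were chosen with earlier results of these data known. Alternatives were other distance limits, stricter limits on enrichment, merged peaks, other sets of chromosomes and other rules for the class or the distance. Only the background solver and the Newcombe and median intervals were tested on simulated data. The simulated scores came from the Poisson formula that the solver inverts, so its recovery there says little about listed scores. Classes, distances, host matching and list counts were not simulated. Calculations and figures were made in Python 3.11.15 with pandas 2.3.3, scipy 1.17.1, numpy 2.4.6 and, for plots, matplotlib 3.10.9.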

Additional observations from a re-analysis of the deposited data

How the results depend on the processing

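In all, 154 values were recomputed under 16 settings, of which 4 were added after seeing the data. Of these values, 137 stayed within the spread or within 1.5 times the count, 17 moved and 0 were counted as reversed. A reversal was counted only for a difference whose main interval left out 0. None did, so no reversal could be counted, although signs did change in some settings. Reading intron on any line could change nothing, since each peak had 1 class, and the share downstream of the closest start was fixed by the class. With a limit of 10 kb there were 2301 peaks, 2136 host symbols and 1801 protein-coding hosts, 61.1% of peaks lay at the genome-wide background, and the difference from deep introns in peaks with a fold of at least 10 was -0.46 points. With a limit of 50 kb there were 7908 peaks, 5493 host symbols and 4629 protein-coding hosts, and 29.1% of peaks lay within 10 kb. Without chromosomes 6 and 8, 66.2% lay at the genome-wide background, and with 1 listed start only, 61.4%. Without chromosomes 1, 6 and 8 that share was 71.5%, the share with a fold of at least 10 was 5.70%, and 14.5% of hosts had a promoter peak. Counting strong peaks by a score of at least 80 gave 4.14%, and by 20 or more tags 12.8%, with a difference from upstream peaks of -1.06 points. Taking the distance from the first line stayed inside the main interval but gave a difference of -2.09 points in hosts with a promoter peak, with 0 outside its own interval. The share within 10 kb is fixed at a limit of 10 kb and is not given, and the motif search in peaks was not run because no hg19 genome was at hand. No paired analysis was possible because there is 1 library on each side. With a median of 14 tags per peak and no replicate, counting error alone spans a large part of each fold, and the order of single peaks with like values is not resolved.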

Other observations

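Gene families grouped by symbol, chosen after the values were seen and not matched on gene length, differed in how many members hosted an intronic peak within 20 kb of a start, against 15.2% of all protein-coding genes. Solute carriers, the largest group of membrane transporters, did so in 85 of 386 genes (22%, 18.2 to 26.4%), with 120 peaks and a median fold of 7.0. SLC12A5 stood at 14.70, and SLC7A7 and SLC3A2, the light and heavy chains of an amino acid exchanger, stood at 11.44 each with 18 and 17 tags. Potassium channel genes did so in 24 of 96 (25%, 17.4 to 34.5%), led by KCNK10 at 13.07 with 18 tags, and voltage-gated calcium channel subunits in 9 of 26 (34.6%, 19.4 to 53.8%), led by CACNB4 at 10.62. Collagens gave 12 of 44 (27.3%, 16.3 to 41.8%), led by COL23A1 at 11.95. The zinc finger genes of the ZNF series gave 83 of 517 (16.1%, 13.1 to 19.5%).

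The lowest shares were in olfactory receptors, protocadherins and ribosomal proteins. Olfactory receptors hosted such a peak in 1 of 392 genes (0.255%, 0.0450 to 1.43%), which was OR7C1 with 13 tags, protocadherins in 1 of 66 and ribosomal protein genes in 2 of 86 (2.33%, 0.640 to 8.09%). RPL38 was 1 of the latter, with 37 tags and a fold of 7.35 at the genome-wide background. ABC transporters, the family of the efflux pumps, gave 9 of 46 (19.6%, 10.7 to 33.2%), with ABCG2 and ABCC2 at 8.99 and ABCC1 at 8.17, and none reached 10. By the rule, a gene with no intron cannot host such a peak, and a gene shorter than 2 kb cannot do so from its own start. A low share in a family of short or intronless genes can therefore be fixed in advance, and the low shares here are no result about those families. How far gene length set these shares was not tested.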
